A study of Homo sapiens with 16 samples.

Results

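CEBPA, CEBPB, CEBPD and CEBPG encode C/EBP alpha, beta, delta and gamma, 4 members of the CCAAT/enhancer binding protein family of transcription factors. They were followed in OVCAR3, an established human ovarian carcinoma cell line, as it was exposed to 1,25(OH)2D3, the active hormone made from vitamin D. Every probe set that the platform annotation assigned to exactly 1 of these symbols was taken. That gave 5 of the 22283 probe sets of the Affymetrix U133A array, for 4 of its 11963 genes, and 4 of the 12626 probe sets of the older U95 array. CEBPB was higher than in vehicle at 8, 24 and 72 h, by 1.64-fold to 1.85-fold. The brighter of the 2 U133A probe sets of CEBPD had its highest mean at 8 h, and that of CEBPG was highest at 72 h. Neither gene passed the test at any time. The U133A probe set of CEBPA lay under the filter on low signal and did not pass in a fit without it.

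The U133A set held 4 groups of 3 biological replicates, which were OVCAR3 cells with ethanol vehicle (labelled 0 h) and OVCAR3 cells with 1,25(OH)2D3 for 8, 24 or 72 h. The series' design text gives the dose as 0.1 pM, and that unit could not be checked from the array values. Hormone was added at staggered times, the groups were harvested together, and ethanol exposure was equal in amount and length, so vehicle and treated cells shared the solvent. The 3 replicates came from 3 independent experiments, and a preliminary U95 set held 1 array for each of the same 4 conditions. The cells are a single tumour line, kept in medium with serum and insulin, and a signal summed over a culture does not tell fewer expressing cells from less RNA per cell.

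Median signals ranged from 168 to 196 over the 12 U133A arrays, and log2 values correlated between arrays at 0.958 to 0.976. CYP24A1, the enzyme that inactivates 1,25(OH)2D3, had a signal of 129 ± 103 (SD, n = 3) in vehicle and 6185 ± 380 at 8 h, and GADD45A, the growth arrest gene that the study followed, had 468 ± 89.8 in vehicle and 1332 ± 107 at 8 h. All 11 markers of ovarian carcinoma lines were above the filter on low signal, with sums of 41925 to 50315 per array, and WT1, PAX8 and KRT18 among them changed with treatment. All tested markers of fibroblasts (3 of 8) and leukocytes (1 of 8) failed to pass at any time, and no endothelial, adipocyte or hepatocyte marker was above the filter. The summed fibroblast signal was 1257 to 1394 in vehicle and 1205 to 1454 across the treated arrays.

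C/EBP proteins bind DNA as dimers through a basic region and a leucine zipper, so that the family's output depends on which members are present together. C/EBP alpha is known for growth arrest and terminal differentiation, in fat, liver and myeloid cells above all. C/EBP beta and delta are induced by cytokines and hormones and activate acute phase and inflammatory genes, and C/EBP beta is also made as a shorter isoform, LIP, from the same messenger RNA, so the arrays do not tell its isoforms apart. C/EBP gamma lacks a strong activation domain of its own and acts as a partner, with ATF4 in the control of amino acid and glutathione genes. The vitamin D receptor, VDR, is a ligand-dependent nuclear receptor that binds direct repeats of a short motif together with a retinoid X receptor.

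CEBPA (chr19:33299934-33302534) and CEBPG (chr19:33373709-33382686) lie close together on the long arm of chromosome 19, and CEBPB lies at chr20:50190583-50192690, in RefSeq on GRCh38.p14. The promoter table held 5 start windows for these 3 genes, 1 for CEBPA and 2 each for CEBPB and CEBPG, and none for CEBPD. The 250 bases before the outermost annotated start of CEBPB, chr20:50190333-50190582 on the plus strand, are shown because CEBPB is the member that rose. Capitals mark the motif GGGCGG, to which Sp1-type factors bind, and its complement CCGCCC.

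CEBPB upstream: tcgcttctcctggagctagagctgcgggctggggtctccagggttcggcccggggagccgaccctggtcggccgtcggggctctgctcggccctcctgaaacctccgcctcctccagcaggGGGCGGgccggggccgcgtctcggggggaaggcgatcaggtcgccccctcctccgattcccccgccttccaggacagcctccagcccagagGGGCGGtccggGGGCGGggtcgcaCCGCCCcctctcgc

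This stretch holds 4 GGGCGG matches on the 2 strands, a motif chosen after the sequence was read, which 42.6% of 35116 upstream windows of 250 bases hold. Its G and C content is 75.6%, and the 5 windows ran from 75.6% to 81.2%, against a median of 58.0% over all windows. 6 motifs were listed for the search, on both strands. They were TTGCGCAA, the palindromic C/EBP site (0.131% of windows), TTGCNNAA, a looser form that includes it (9.05%), TGATGCAA, the composite site of C/EBP and ATF factors (0.772%), TGACGTCA, the cyclic AMP response element (1.65%), and direct repeats of AGGTCA or of GGTTCA with any 3 bases between, of the kind that VDR binds (0.0057% each). The windows of CEBPB and CEBPA held no match to any of the 6.

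A single match came from CEBPG, where TGATGCAA begins 42 bases before its second annotated start. A further stretch of CEBPB is set beside it, before that gene's second start, with TGACGCAG in capitals, a sequence like the cyclic AMP response element that was picked after the windows were read (0.792% of windows). The CEBPG stretch is chr19:33374060-33374089 and the CEBPB stretch is chr20:50190762-50190791, both on the plus strand and both inside the annotated span of their gene.
CEBPG composite: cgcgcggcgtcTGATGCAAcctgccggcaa
CEBPB element: aggggccggcgTGACGCAGcggttgctacg
These letters describe the windows and do not show that a factor binds there.

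The first comparison was of each time with vehicle. Signals were transformed as log2(signal + 15.8), the added number being the 10th percentile of all U133A values, and the 7178 genes with a mean signal above about 169 were fitted together with limma. 3 of the 4 members were above that filter, CEBPB, CEBPD and CEBPG. Folds and log2 changes are on that scale.

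CEBPB, measured by probe set 212501_at, had vehicle signals of 8379, 8022 and 7582 in replicates 1, 2 and 3. At 8 h they were 13253, 14292 and 14605. Every 8 h array was thus above every vehicle array, which was so for 6.51% of genes. The gap was larger than the spread within either group. The mean rose from 7994 ± 399 to 14050.0 ± 708 (SD, n = 3), a log2 change of 0.81 (SE 0.096, 95% interval 0.61 to 1.02, 1.76-fold, limma adjusted p = 1.9e-04). CEBPB was the 1 member of the 3 tested that passed at 8 h, where 0.711% of all genes rose and 0.0557% fell, and its change was number 40 of 7178 in order of rise.

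At 24 h the CEBPB signals were 15216, 14054 and 15081. Their mean, 14784 ± 636, was the highest of the groups, and they again lay above every vehicle array. How many genes did so at 24 h was not counted. The log2 change was 0.89 (interval 0.68 to 1.09, 1.85-fold, limma adjusted p = 3.1e-05), at a time when 2.45% of genes rose and 1.62% fell. At 72 h the signals were 15424, 12923 and 11384, a wider spread than at the earlier times, with replicate 1 the highest and replicate 3 the lowest. The mean was 13244 ± 2039 and the log2 change 0.72 (interval 0.51 to 0.92, 1.64-fold, limma adjusted p = 1.7e-04), where 3.86% of genes rose and 2.98% fell.

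All 9 treated arrays exceeded all 3 vehicle arrays for CEBPB, as they did for 186 of the 7178 genes (2.59%). CEBPB passed at each of the 3 times, as did 48 genes (0.669%) in the upward direction, and it passed the F test of any time (limma adjusted p = 5.4e-05, background 5.21%). These 3 contrasts share the vehicle arrays. The rise was already present at the earliest time sampled. The direction and call held at each time under all 22 other settings, with log2 changes of 0.75 to 0.85 at 8 h, 0.81 to 0.92 at 24 h and 0.60 to 0.82 at 72 h.

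**Figure D1:**
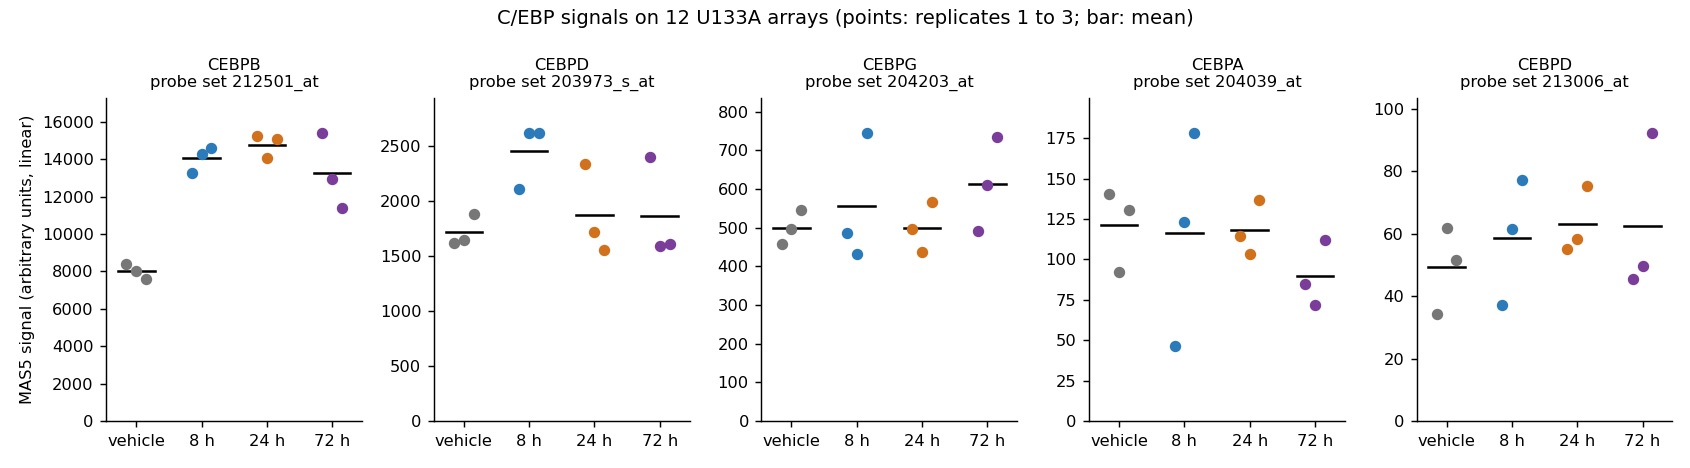
MAS5 signal (linear, arbitrary units, axes from 0) of the 5 C/EBP probe sets on each U133A array in vehicle and after 8, 24 and 72 h with 1,25(OH)2D3, with points for replicates 1 to 3 from left to right and a bar for the mean. The 9 treated CEBPB values lie between 11384 and 15424 above vehicle values of 7582 to 8379, whereas the groups of the other probe sets overlap except CEBPD 203973_s_at at 8 h.

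CEBPD was measured by 2 probe sets. The brighter, 203973_s_at, whose suffix marks probes shared by several transcripts, had vehicle signals of 1621, 1652 and 1886. At 8 h they were 2114, 2627 and 2621. All 8 h arrays were above all vehicle arrays, which was also so for 6.51% of genes. The mean was 1720 ± 145 in vehicle and 2454 ± 294 at 8 h (SD, n = 3), a log2 difference of 0.51 (SE 0.17, interval 0.15 to 0.86, 1.42-fold), number 120 of 7178 in order of rise. It did not pass over all genes (limma adjusted p = 0.34), although the unadjusted value was under 0.05. The adjusted p was 0.047 when the fit was limited to the vehicle and 8 h arrays, and 0.15 to 0.81 in the other 21 settings.

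At 24 h the CEBPD signals were 2336, 1718 and 1561, and at 72 h they were 2408, 1591 and 1614. In both groups replicate 1 stood well above the other two, which lay within or below the vehicle range. The means were 1872 ± 410 and 1871 ± 465. The log2 differences from vehicle were 0.10 (interval -0.25 to 0.46, limma adjusted p = 0.86) and 0.097 (interval -0.26 to 0.45, adjusted p = 0.82). Each rested on replicate 1, since they were -0.066 without 24 h replicate 1 and -0.098 without 72 h replicate 1.

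The other CEBPD probe set, 213006_at, was under the filter, with vehicle signals of 34.4, 61.9 and 51.5. Its treated values ran from 37.2 to 92.5 and overlapped vehicle at each time. In a fit without a filter its log2 difference at 8 h was 0.18, with an interval of -0.49 to 0.85 that includes the value of the brighter probe set. At 24 and 72 h it was 0.29 and 0.24, so this probe set did not have its highest mean at 8 h. Its limma adjusted p was 0.999, 0.85 and 0.83 at 8, 24 and 72 h.

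CEBPG, measured by 204203_at, had vehicle signals of 459, 497 and 546. At 8 h they were 485, 433 and 746, at 24 h 497, 437 and 566, and at 72 h 491, 609 and 736. The groups overlapped at every time, and replicate 3 was the highest array of each group. Means were 500.3 ± 43.6 in vehicle, 555 ± 168 at 8 h, 500.0 ± 64.7 at 24 h and 612 ± 123 at 72 h (SD, n = 3). The log2 differences were 0.11 (interval -0.29 to 0.51, limma adjusted p = 0.999), -0.0051 (interval -0.40 to 0.39, adjusted p = 0.996) and 0.27 (interval -0.13 to 0.67, adjusted p = 0.47). A change of CEBPG as large as the CEBPB change at each time lay outside these intervals, although smaller changes did not.

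CEBPA, measured by 204039_at, was under the filter on low signal. Its vehicle values were 140, 92.0 and 131, and its 8 h values, 46.5, 123 and 179, surrounded them. The 24 h values were 114, 103 and 137, and the 72 h values were 85.0, 71.8 and 112. The 72 h group thus had the lowest mean, 89.7 ± 20.6 against 121 ± 25.6 in vehicle (SD, n = 3), but overlapped it. In the fit without a filter the log2 differences were -0.18, -0.020 and -0.37 (limma adjusted p = 0.999, 0.993 and 0.73), with an interval of -1.15 to 0.40 at 72 h.

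**Figure D2:**
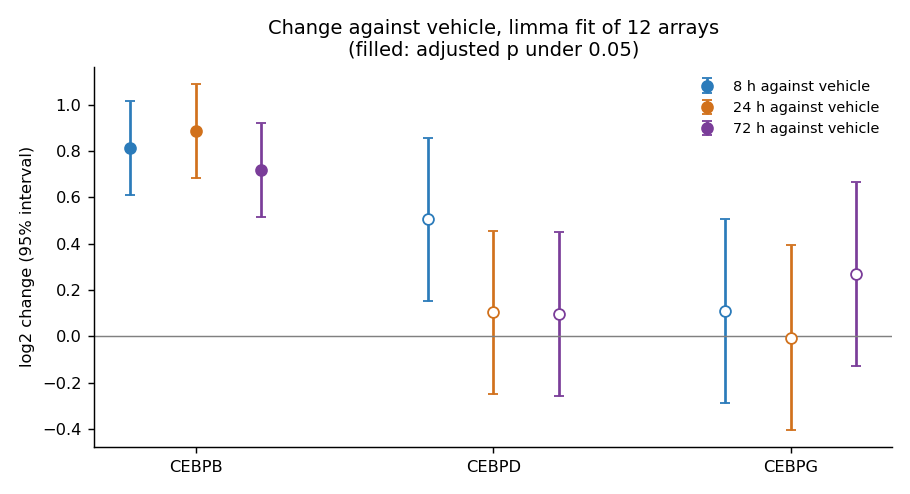
Log2 change against vehicle of the 3 C/EBP genes above the filter, with 95% intervals from the limma fit of 12 arrays, filled where the adjusted p was under 0.05. The CEBPB intervals lie between 0.51 and 1.09, the CEBPD interval at 8 h spans 0.15 to 0.86, and the other 5 include 0.

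The treated groups were then set against each other, which needs no vehicle array. For CEBPB, 24 h differed from 8 h by 0.074 on the log2 scale (interval -0.13 to 0.28), 72 h from 24 h by -0.17 (interval -0.37 to 0.035) and 72 h from 8 h by -0.095 (interval -0.30 to 0.11). Each of these intervals spans both signs, and none of the differences passed (limma adjusted p = 0.93, 0.53 and 0.75). The order of the 3 treated means of CEBPB was therefore not resolved. The CEBPD mean at 24 h stood below that at 8 h by a log2 difference of -0.40 (interval -0.75 to -0.049, limma adjusted p = 0.52), and at 72 h than at 8 h by -0.41 (interval -0.76 to -0.056, adjusted p = 0.26). Those 2 differences had an unadjusted p under 0.05 and did not pass over all genes. CEBPG differences between times were -0.11, 0.27 and 0.16 in the same order, with limma adjusted p = 0.95, 0.61 and 0.79. No member passed between times, where 0.362% of genes were higher and 0.279% lower at 24 h than at 8 h, 0.0836% and 0.0697% at 72 h than at 24 h, and 1.38% and 1.14% at 72 h than at 8 h.

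The U95 arrays, normalised separately and without replicates, give values but no test. CEBPB, by 38354_at, had signals of 6037 in vehicle and 6746, 6752 and 7407 at 8, 24 and 72 h. These were above vehicle at each time, but by log2 ratios of 0.16, 0.16 and 0.29, smaller than the lower bounds of the U133A intervals. Ratios as high were found in 23.9%, 26.3% and 16.5% of 4937 genes, so CEBPB did not stand out there. CEBPD, by 1052_s_at, had 1181 in vehicle and 1791, 1393 and 1628 at 8, 24 and 72 h, with log2 ratios of 0.59, 0.23 and 0.46. As for the brighter U133A probe set, its highest value was at 8 h, where 2.9% of genes had a ratio as high. CEBPG, by 39219_at, had 349, 344, 351 and 319, with log2 ratios of -0.020, 0.011 and -0.12. Its lowest U95 value was at 72 h, where its U133A mean was highest. CEBPA, by 32550_r_at, had 597, 546, 407 and 525, with log2 ratios of -0.13, -0.54 and -0.18. Its lowest value was at 24 h, where 92.1% of genes had a ratio as high, whereas its U133A mean was lowest at 72 h. Unlike on U133A, CEBPA was among the 4937 genes above the filter on U95.

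**Figure D3:**
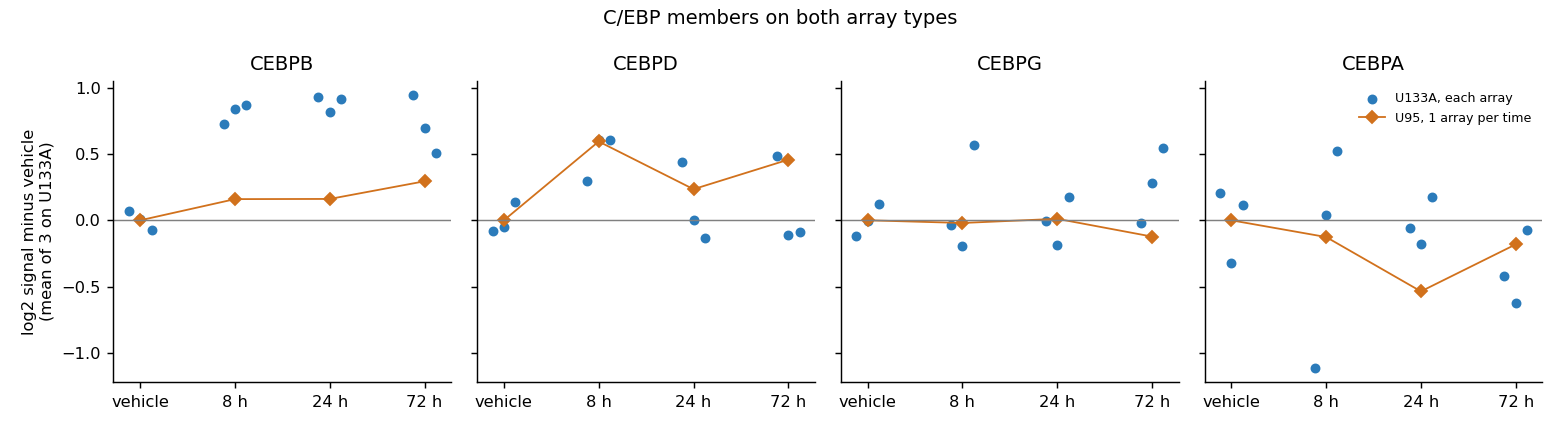
Log2 signal of each C/EBP gene minus vehicle, with blue points for the 12 U133A arrays (against the mean of their 3 vehicle arrays) and orange diamonds for the 4 U95 arrays. For CEBPB the U95 values of 0.16, 0.16 and 0.29 lie below every treated U133A point, whereas for CEBPD at 8 h the U95 value of 0.59 lies within the range of the U133A points.

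The members did not share a pattern over the 12 arrays. As a description, the Pearson correlation of log2 values was 0.48 between CEBPB and CEBPD, and -0.10 to 0.28 for the other 5 pairs. Arrays of a group share their treatment, so such values mix the response with the scatter of replicates. The 5 genes most like CEBPB were FUCA1, a lysosomal fucosidase (r = 0.97), ABL1, a tyrosine kinase (0.95), ZMIZ1, a transcriptional coregulator (0.94), PDZD8, a protein of the endoplasmic reticulum membrane (0.94), and WT1, a zinc finger transcription factor used as a marker of this tumour type (0.93). 15 of 7177 genes had r over 0.9 with CEBPB. Among the 9 treated arrays alone r was 0.62 for FUCA1, 0.47 for ABL1, 0.58 for ZMIZ1, 0.82 for PDZD8 and -0.17 for WT1, so much of the likeness was the step from vehicle to treated.

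These 5 genes were chosen for their likeness to CEBPB on the same arrays. A rise from vehicle was thus largely set by the choice, and the changes are given as a description without p. FUCA1 had log2 changes of 0.96, 1.05 and 0.96 at 8, 24 and 72 h, and WT1 had 0.97, 1.00 and 1.05. ABL1 had 0.58, 0.72 and 0.73, ZMIZ1 had 0.68, 0.83 and 0.78, and PDZD8 had 0.65, 0.68 and 0.44. The genes most like CEBPD were TWNK, SNX11, ZFPL1, CHRNA5 and GNL3L (r = 0.77 to 0.80), and those most like CEBPG were MICALL1, PLS3, SFSWAP, POPDC3 and FURIN (r = 0.79 to 0.85). These 10 were chosen in the same way, for likeness to members that did not pass. That none of them passed at any time was thus largely set by the choice. Over all genes 0.711%, 2.45% and 3.86% rose and 0.0557%, 1.62% and 2.98% fell at 8, 24 and 72 h. Neither CEBPD nor CEBPG had a gene with r over 0.9.

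The factors that work with C/EBP proteins were read from a list of 17 family members and partners, of which 9 were above the filter. ATF3, a stress-induced bZIP factor, was the 1 that passed. Its signal was 332 ± 75.1 in vehicle, 446 ± 22.7 at 8 h, 445 ± 123 at 24 h and 570 ± 127 at 72 h (SD, n = 3), and its log2 change at 72 h was 0.76 (limma adjusted p = 0.034). That call ended in 5 of 22 other settings, 3 of which left out vehicle replicate 2, vehicle replicate 3 or 72 h replicate 3 (adjusted p = 0.15, 0.058 and 0.13). By limma, 0 of 9 passed at 8 and 24 h, and 1 and 0 had an unadjusted p under 0.05. Over all genes 0.711%, 2.45% and 3.86% rose and 0.0557%, 1.62% and 2.98% fell at 8, 24 and 72 h. Counts at an unadjusted p under 0.05, here and for the lists below, have no such share beside them and are only a description. ATF4, the partner of C/EBP gamma, had log2 differences of -0.11, 0.13 and 0.090 (limma adjusted p = 0.999, 0.74 and 0.76). DDIT3, or CHOP, a family member that inhibits the others, is outside the naming rule and was added for that role. It had 0.0064, 0.060 and 0.25, and did not pass. Over the 9 genes the medians of the log2 change were 0.041, 0.060 and 0.063 at 8, 24 and 72 h, and over all genes they were -0.0040, -0.016 and -0.015.

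Of 16 genes that degrade or modify C/EBP proteins, 13 were above the filter and 0 passed by limma at any time, with 1, 2 and 2 at an unadjusted p under 0.05. Over all genes 0.711%, 2.45% and 3.86% rose and 0.0557%, 1.62% and 2.98% fell at 8, 24 and 72 h. With shares that small, 0 of 13 does not set this list apart. CARM1, an arginine methyltransferase that modifies C/EBP beta, had 296 ± 30.1 in vehicle, 190 ± 26.9 at 8 h, 222 ± 9.94 at 24 h and 223 ± 0.42 at 72 h (SD, n = 3). Its log2 differences were -0.60, -0.39 and -0.38 (limma adjusted p = 0.13, 0.24 and 0.18), and at 8 h it passed in 1 of 21 other settings, eBayes without trend (adjusted p = 0.027). TRIB1, which directs C/EBP alpha to degradation and is also outside the naming rule, had 495 ± 80.5 in vehicle and group means of 527, 448 and 518 with treatment, within its spread. TRIB3, of the same family, had log2 differences of -0.26, 0.17 and -0.23 (adjusted p = 0.94, 0.72 and 0.46). The list medians were -0.094, -0.051 and -0.00024.

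The acute phase and inflammation list, genes that C/EBP beta and delta are known to activate, had 8 of 21 members above the filter. By limma 0 passed at 8 h, where 0.711% of all genes rose and 0.0557% fell. At an unadjusted p under 0.05, a cut for which no share over all genes was counted, 1 was higher and 2 were lower. At 24 h 1 rose and 4 fell, and at 72 h 1 rose and 4 fell, against backgrounds of 2.45% and 1.62% at 24 h and 3.86% and 2.98% at 72 h. The medians were -0.047, -0.62 and -0.53. At 24 and 72 h CEBPB was higher than in vehicle and most called members of this list were lower. Whether these changes are related was not tested.

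IL6, a cytokine that gave C/EBP beta its older name NF-IL6, had 466 ± 89.2 in vehicle, 285 ± 16.5 at 8 h, 177 ± 58.0 at 24 h and 195 ± 32.6 at 72 h (SD, n = 3). It fell at 24 and 72 h, with log2 changes of -1.35 and -1.19 (limma adjusted p = 0.0014 and 0.0027). CXCL8, the chemokine interleukin 8, fell by 1.24 and 0.92 on the log2 scale at those times (adjusted p = 1.5e-04 and 0.0013). LCN2, a siderophore-binding protein of the acute phase, had 2552 ± 206 in vehicle and 2518 ± 303 at 8 h, then 1658 ± 370 and 864 ± 181. Its log2 change at 72 h was -1.56 (limma adjusted p = 2.0e-05), and at 24 h it was -0.64 (adjusted p = 0.045), a call that ended in 13 of 22 other settings. CP, the copper carrier ceruloplasmin, rose from 2516 ± 669 to 6349 ± 1067 at 24 h and 5437 ± 1615 at 72 h, with log2 changes of 1.35 and 1.09 (limma adjusted p = 8.4e-04 and 0.0030). The remaining falls, chosen after their values were seen, were PTX3 at 24 h (log2 change -0.60, adjusted p = 0.023, ended in 4 of 22 other settings) and SERPINA1 at 72 h (-0.93, adjusted p = 0.0048). SERPINA1 at 24 h had -0.64 (limma adjusted p = 0.066). It passed in 4 of 20 other settings (adjusted p = 0.021 to 0.0496, the latter with a replicate block).

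Of the 12 myeloid genes, among which C/EBP alpha and epsilon targets are found, 2 were above the filter. That filter used the mean over all arrays, so changes with treatment affected which genes of this list passed it. CAMP, which encodes cathelicidin and is also a direct VDR target, had a signal of 30.8 ± 3.63 in vehicle, 338 ± 106 at 8 h, 896 ± 103 at 24 h and 1138 ± 117 at 72 h (SD, n = 3). It was above the filter through its treated groups alone. Its log2 differences were 2.87, 4.28 and 4.63, given as a description, and their size depends on the added number because the vehicle signal is low. In the fit without a filter its limma adjusted p was at most 1.8e-05. S100A8, a calcium-binding protein of neutrophils, had 490 ± 96.9, 354 ± 76.5, 186 ± 55.6 and 88.2 ± 24.3, and it fell at 24 and 72 h (log2 change -1.35 and -2.29, limma adjusted p = 0.0033 and 1.7e-05). S100A9, its partner protein, named after its values were seen, was under the filter, with 265 ± 27.1, 220.2 ± 78.2, 140.2 ± 69.7 and 79.9 ± 41.2, and it was not tested. The 6 leukocyte markers on the array had a summed signal of 417 to 641 in vehicle and 471 to 721 across the treated arrays, and their part in these values was not tested. CEBPE, the granulocyte member of the family, was under the filter.

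The list of growth arrest and epithelial genes had 10 of 14 members above the filter, and 2 rose at 8 h, 2 at 24 h and 3 at 72 h, with 0 falls by limma at each time (0, 3 and 1 lower at an unadjusted p under 0.05). Over all genes 0.711%, 2.45% and 3.86% rose and 0.0557%, 1.62% and 2.98% fell at those times. GADD45A, which the study chose on its own cells, is not independent evidence of that direction. Its log2 changes were 1.49, 1.91 and 2.02 (limma adjusted p at most 3.5e-05). GADD45B, its paralog, had 217 ± 32.7 in vehicle, 399 ± 72.5 at 8 h, 427 ± 87.6 at 24 h and 382 ± 11.0 at 72 h (SD, n = 3), with log2 changes of 0.83, 0.92 and 0.78 (limma adjusted p = 0.033, 0.0049 and 0.011). These changes are for its brightest probe set. Its other probe sets above the filter were also higher, by log2 differences of 0.38 to 1.10, but did not pass at any time. In a limma fit of probe sets above the filter, their lowest adjusted p was 0.60, 0.14 and 0.14 at 8, 24 and 72 h. The 8 h call of GADD45B ended in 9 of 21 other settings, and its 72 h call without vehicle replicate 2 (adjusted p = 0.057). The third, ID1, named after its value was seen, was at 0.37 at 72 h (adjusted p = 0.0496), and that call ended in 16 of 22 other settings. MYC, which C/EBP alpha represses, had log2 differences of 0.13, -0.34 and -0.63 (limma adjusted p = 0.999, 0.59 and 0.14), and at 72 h it passed without vehicle replicate 2 (-0.94, adjusted p = 0.015).

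Of 17 amino acid and glutathione genes controlled by ATF4, with C/EBP gamma as its partner, 14 were above the filter. By limma 0 passed at 8 h (3 higher and 1 lower at an unadjusted p under 0.05), 4 rose and 0 fell at 24 h (5 and 0), and 2 rose and 2 fell at 72 h (6 and 2). Over all genes 0.711% rose and 0.0557% fell at 8 h. The shares were 2.45% up and 1.62% down at 24 h, and 3.86% and 2.98% at 72 h. No such share was counted for the unadjusted cut, so those counts are only a description. ASNS, asparagine synthetase, had 892 ± 134 in vehicle, 903 ± 164 at 8 h, 1584 ± 284 at 24 h and 1129 ± 95.7 at 72 h (SD, n = 3). It rose at 24 h (log2 change 0.81, limma adjusted p = 0.0063) and had 0.34 at 72 h (adjusted p = 0.24, or 0.033 with a replicate block). DDIT4, a stress-induced inhibitor of mTORC1, rose at 24 and 72 h (0.86 and 1.10, limma adjusted p = 5.1e-04 and 3.1e-05). GCLC, which makes the first step of glutathione synthesis, passed at 24 and 72 h (0.49 and 0.46, adjusted p = 0.039 and 0.036), each call ending in 9 of 22 other settings.

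PSAT1, an enzyme of serine synthesis, was lower at 72 h (log2 change -0.54, limma adjusted p = 0.018, ended in 5 of 22 other settings). The other calls of this list were named after their values were seen. They were CHAC1 at 24 h (1.13, limma adjusted p = 0.044, ended in 12 of 21) and the amino acid transporter SLC7A5 at 72 h (-0.62, adjusted p = 0.041, ended in 10 of 22). CHAC1 at 72 h had 0.98 (limma adjusted p = 0.063). It passed then in 3 of 21 other settings (adjusted p = 0.013 to 0.042), among them the replicate block (0.035). The medians of the 14 genes were -0.021, 0.10 and 0.051 at 8, 24 and 72 h. CEBPG itself had a log2 difference of -0.0051 at 24 h (interval -0.40 to 0.39), when 4 of them rose. Its relation to those rises was not tested.

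The adipocyte and metabolic list, on which C/EBP alpha acts in fat and liver, had 4 of 15 members above the filter. By limma 0 passed at 8, 24 and 72 h, and 0, 1 and 2 were lower at an unadjusted p under 0.05. Over all genes 0.711%, 2.45% and 3.86% rose and 0.0557%, 1.62% and 2.98% fell at those times, so 0 of 4 does not set this list apart. PLIN2, which coats lipid droplets, had 1433 ± 30.4 in vehicle, 1246 ± 132 at 8 h, 1143 ± 59.1 at 24 h and 1151 ± 146 at 72 h (SD, n = 3), with limma adjusted p = 0.89, 0.14 and 0.10. The 4 genes had medians of -0.19, -0.23 and -0.30.

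**Figure D4:**
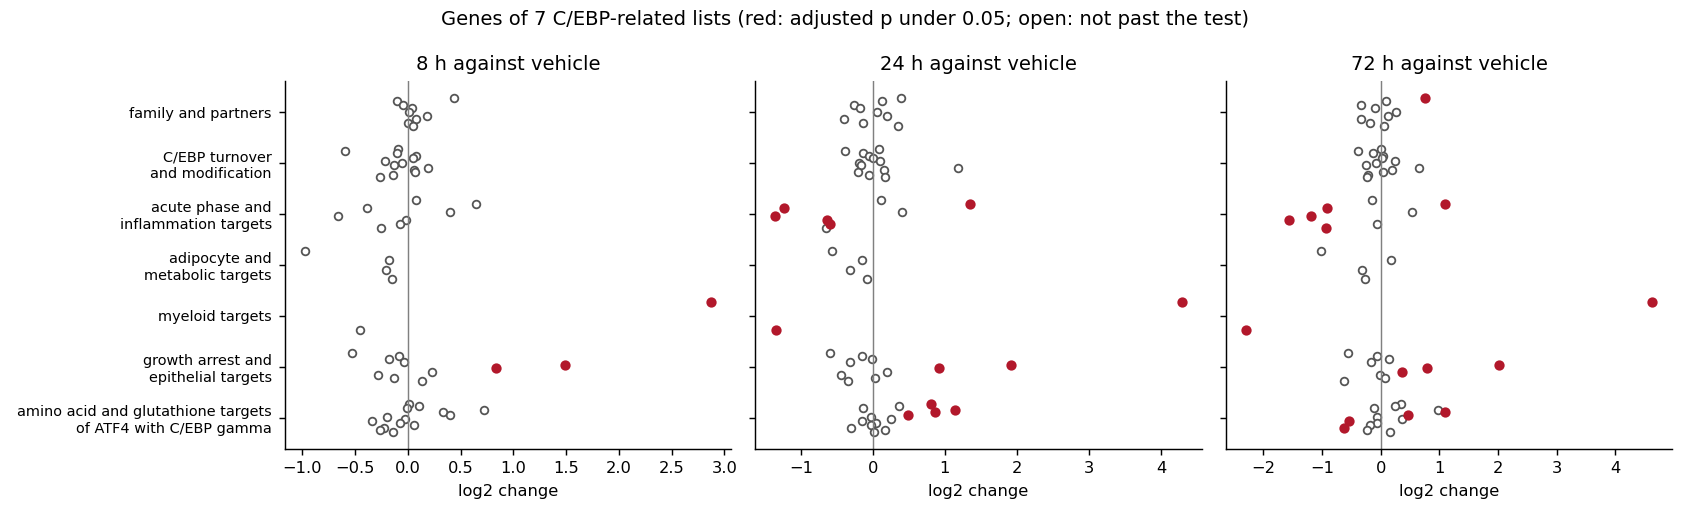
Log2 change of the tested genes of 7 C/EBP-related lists against vehicle at 8, 24 and 72 h, each point a gene, red where the limma adjusted p was under 0.05 and open otherwise (the scale differs between panels). At 24 and 72 h the acute phase and inflammation list has 4 red points below 0 and 1 above, while the list of genes that degrade or modify C/EBP proteins has no red point at any time.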

How the data were processed

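RNA of OVCAR3 cells was measured on 12 U133A and 4 U95 arrays. The deposited values are intensities, 1 for each probe set, made with MAS5 according to the submitters' processing notes, which name no version. They are linear and were used as deposited, since the trimmed mean was about 500.2 on every U133A array. Detection calls were not used here. Genes come from the platform annotation, with symbols and promoter windows from RefSeq (GRCh38.p14).

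Each gene was represented by its brightest probe set on average. Genes under the 40th percentile of mean log2(value + 15.833) were left out. limma 3.58.1 in R 4.3.3 (lmFit, eBayes with trend) was fitted to the 7178 genes left, with 1 term per group, which leaves 8 residual degrees of freedom. P-values were adjusted over those genes by Benjamini-Hochberg, with a threshold of 0.05. The U95 values had 13.87 added. The scripts were tested on simulated data. Genes named are the 4 members, up to 4 genes per list with the lowest F-test p, and the 5 genes most correlated with each member, with CYP24A1 and GADD45A as a check of the response, while other names are marked. Members and lists were chosen with earlier results of these data known. The labels call the replicates biological, and 3 arrays a group limit the precision.

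Same-numbered arrays deviated together over 0.1 in all 3 pairs for 8 and 24 h (0.108 to 0.157) and for 24 and 72 h (0.103 to 0.187), but in 1 or 2 of 3 pairs in the other comparisons. The correlations of these deviations were positive in every comparison, from 0.052 to 0.26. The fit reported has no replicate block, and calls that changed with a block are given below.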

Additional observations from a re-analysis of the deposited data

How the results depend on the processing

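The alternatives were other pseudocounts and filters, the mean of probe sets, quantile normalization and median centring, a fit of the 2 groups compared, a replicate block, eBayes without trend, and leaving out each array in turn. CEBPB kept its direction and call at all 3 times in each of them. CEBPD at 8 h (log2 difference 0.51) passed in the fit of the 2 groups compared and in no other. CEBPG at 24 h was 0.0066 with quantile normalization and 0.030 with median centring, against -0.0051 as reported.

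Leaving out 1 array gave, against vehicle, -0.12 to 0.26 for CEBPG at 8 h and -0.096 to 0.085 at 24 h, -0.066 to 0.22 for CEBPD at 24 h and -0.098 to 0.20 at 72 h. Between times it gave -0.27 to 0.11 for CEBPG (24 h against 8 h), -0.20 to 0.16 for CEBPD (72 h against 24 h) and -0.21 to 0.0082 for CEBPB (72 h against 8 h). For uncalled list genes at 8 h it gave -0.12 to 0.17 for ASNS, -0.25 to 0.017 for ATF4, -0.12 to 0.042 for LCN2, -0.18 to 0.36 for MYC and -0.13 to 0.023 for PTX3, and for PTX3 at 72 h -0.18 to 0.012. CEBPA at 8 h, without the filter, ran from -0.54 to 0.28.

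With the replicate block 84 genes passed at 8 h, against 55 without it, and no member's call changed. Of the list genes examined, ASNS and CHAC1 at 72 h and SERPINA1 at 24 h passed with the block and not in the fit reported. CHAC1 and SERPINA1 also passed at those times in some settings without the block. Genes past the threshold numbered 292 at 24 h and 491 at 72 h, and 187 to 314 and 322 to 532 with 1 array left out. The low counts came without vehicle replicate 3 (187 and 322) and, at 72 h, vehicle replicate 1 (325). Median centring gave 68.7% of calls upward at 24 h, against 60.3%. The cause of these shifts was not tested. The number of arrays, and the low U133A signals of CEBPA 204039_at and CEBPD 213006_at, limit what could be detected.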
